A study of Mus musculus with 32 samples.

Results

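Bcl11b and GATA3 binding was compared over the whole genome in Scid.adh.2c2, a mouse pro-T-like cell line. All 17874 peaks of the Bcl11b list and all 36973 peaks of the GATA3 list were taken, and a pair of peaks sharing at least 1 bp was called common. This gave 51391 regions: 3456 common sites, 14418 Bcl11b sites without a GATA3 peak and 33517 GATA3 sites without a Bcl11b peak. The 6 peak lists used here, which include those for Runx1 and Runx3 in the same line and for Bcl11b and GATA3 in ILC2/b6, held 144420 peaks in all.

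Bcl11b is a zinc finger transcription factor that is switched on when early T-cell precursors commit to the T lineage, and it represses genes of other fates and sustains T-cell genes. GATA3 is a zinc finger factor that binds the letters GATA and is needed for T-cell specification and for group 2 innate lymphoid cells (ILC2). Runx1 and Runx3 belong to the Runt family, bind DNA together with the shared subunit Cbfb and are known partners of Bcl11b in T cells.

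For ChIP-seq, the protocol describes cross-linking of unmodified Scid.adh.2c2 cells with DSG followed by formaldehyde, and each of these factors was precipitated with a mixture of antibodies. Inputs labelled FA as well as inputs labelled DSG belong to the line, and which input, or which cross-linking if it differed, went with which factor is not stated in the labels. A difference of that kind cannot be told apart from one between the factors. Each factor had 2 ChIP libraries that entered 1 peak list, so peaks could not be compared between replicates. For RNA-seq, the same line was transduced with a control guide or with a guide against Bcl11b (sgCont and sgBcl11b, each with a CFP marker), in 2 libraries each. No label says that these came from separate cultures, so a p-value here reflects only the spread between libraries, which may be technical. ILC2/b6, the second line of the series, stands for group 2 innate lymphoid cells, and only its peak lists were used. The RNA libraries held 34.7 to 43.7 M reads (M, mega), as worked out from the RPKM steps. RPKM is a read count divided by transcript length and by library depth. All 10 pro-T markers were above 1 RPKM in every RNA library. Summed levels of the B cell, myeloid, erythroid and stromal markers were between 0.225 and 5.97 RPKM, with Pax5, Cebpa and Pdgfra at 0. The mast cell markers summed to 23.9 and 21.5 RPKM in the control and to 62.8 and 62.9 RPKM with the Bcl11b guide, nearly all of it from Cpa3, with Fcer1a and Tpsb2 at 0. Bcl11b RNA was 47.0 and 49.5 RPKM with the control guide and 47.1 and 46.8 RPKM with the Bcl11b guide. A guide that shifts the reading frame need not lower the RNA, so this value does not check the labels.

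Promoter sequences of 5 genes that carry a peak within 120 bp of the annotated start are given as examples. They do not stand for their classes. The sequences are from RefSeq (GRCm38.p6) and cover the 150 bases before the start, 5′ to 3′ on the gene's strand, with the letters of the 4 motifs searched, spelled out in the next paragraph, in capitals, while peak positions are on mm9. Rag1, a recombinase gene with a common peak (chr2:101649533-101649682, minus strand), held TGTGGT at 81 and 67 bases before the start and CAGCTG further upstream. Fcer1g, the Fc receptor gamma chain gene with a common peak (chr1:171234350-171234499, minus strand), held CTTCCGG. Cd3g, a chain of the T-cell receptor complex with a Bcl11b peak alone (chr9:44980432-44980581, minus strand), held AGATAA although it had no GATA3 peak. Irgm2, an interferon-induced GTPase gene with a Bcl11b peak alone (chr11:58214827-58214976, plus strand), held none of the letters searched. Diaph3, a formin gene with a GATA3 peak alone (chr14:87141225-87141374, minus strand), held TGTGGT and no AGATAA in this stretch.
Rag1: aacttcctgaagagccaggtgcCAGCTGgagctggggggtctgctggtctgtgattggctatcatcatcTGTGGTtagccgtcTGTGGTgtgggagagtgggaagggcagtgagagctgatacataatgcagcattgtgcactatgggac
Fcer1g: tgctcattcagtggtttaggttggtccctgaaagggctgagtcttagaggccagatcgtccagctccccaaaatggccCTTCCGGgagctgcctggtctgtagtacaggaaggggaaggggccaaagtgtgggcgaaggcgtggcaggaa
Cd3g: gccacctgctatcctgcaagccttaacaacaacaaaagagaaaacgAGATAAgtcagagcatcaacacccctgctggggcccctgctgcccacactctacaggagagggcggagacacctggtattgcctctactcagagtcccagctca
Irgm2: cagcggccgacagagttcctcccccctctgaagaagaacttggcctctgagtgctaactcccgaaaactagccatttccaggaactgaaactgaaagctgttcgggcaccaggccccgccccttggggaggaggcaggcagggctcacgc
Diaph3: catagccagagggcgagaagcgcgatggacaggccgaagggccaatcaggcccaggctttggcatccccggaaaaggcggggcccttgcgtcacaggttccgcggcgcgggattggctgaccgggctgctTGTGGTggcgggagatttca

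Letters were searched on both strands in windows from 250 bases before to 50 after the start, for the 14886 genes of the RNA table with 1 promoter entry. GATA3-alone promoter peaks lay a median of 0.509 kb from the start (quartiles 0.2705 and 0.734 kb), so the window mostly missed them. Bcl11b-alone promoter peaks lay a median of 0.074 kb away, and common ones 0.0885 kb by the Bcl11b list. The Runx letters were TGTGGT, or ACCACA on the other strand. The GATA letters were AGATAA, or TTATCT on the other strand. The Ets letters were CCGGAAG, or CTTCCGG on the other strand. The E-box letters were the palindrome CAGCTG, and no set of letters contains another. The GATA letters stood in 17.8% of promoters with a common peak (31 of 174, Wilson 95% interval 12.8% to 24.2%) and in 17.8% of those with GATA3 alone (43 of 242). They stood in 4.07% of promoters with Bcl11b alone (140 of 3440), against 10.0% of all promoters and 5.79% of promoters of genes with at least 1 RPKM in the control. Promoters with a Bcl11b peak and a GATA3 peak at separate sites held these letters in 5.88% (10 of 170), near the share of expressed genes. GATA letters were thus about as frequent with a common peak as with GATA3 alone. They were less frequent with both factors apart and least frequent with Bcl11b alone. The Ets letters ran the other way, with 26.3% in Bcl11b-alone promoters, 21.3% in common ones and 10.7% in GATA3-alone ones, against 11.7% of all promoters and 23.0% of promoters of genes with at least 1 RPKM in the control. Against those expressed genes the Bcl11b-alone share was slightly higher and the common share slightly lower. The Runx letters differed little between the classes, at 13.8% (common), 12.2% (Bcl11b alone) and 15.7% (GATA3 alone), against 15.0% of all. Base composition also moved with the classes: the median GC content was 60.7%, 62.7% and 54.2% in the same order and 56.0% over all promoters. Its part in the motif shares was not tested, and a match of letters is a description, not a binding site.

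The common sites made up 19.3% of the Bcl11b list (Wilson 95% interval 18.8% to 19.9%, covering counting error only) and 9.35% of the GATA3 list. Each common peak had 1 partner. The centres of a pair were a median of 47 bp apart (quartiles 21 and 92 bp), and in 1552 pairs (44.9%) the whole 237-bp Bcl11b peak lay inside the 317-bp GATA3 peak. Only 68 pairs overlapped by 20 bp or less. Near misses were few, since 298 Bcl11b peaks without GATA3 (2.07%) lay within 100 bp of a GATA3 peak. One of these near misses was at Cd3d, another T-cell receptor chain gene, where a Bcl11b peak in the 3′ UTR (chr9:44794571-44794807, score 126.1) ended next to a GATA3 peak (chr9:44794233-44794549, score 20.1). At a wider scale the classes were unlike: 51.0% of the Bcl11b-alone peaks but 22.5% of the GATA3-alone peaks had a peak of the other factor within 10000 bp. The median gap to the nearest peak of the other factor was 9.60 kb and 49.1 kb.

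Bcl11b without GATA3 was found at promoters far more often than GATA3 without Bcl11b, although most peaks of both classes lay outside promoters. By the deposited annotation, 42.3% of Bcl11b-alone peaks (6094; interval 41.5% to 43.1%), 9.03% of common peaks (312; 8.12% to 10.0%) and 2.13% of GATA3-alone peaks (714; 1.98% to 2.29%) were at a promoter. The common sites therefore had fewer promoters than the rest of the Bcl11b list and more than the rest of the GATA3 list. Introns held 43.1% of common, 25.2% of Bcl11b-alone and 40.7% of GATA3-alone peaks, and intergenic sequence held 43.2%, 24.8% and 54.1%. The median distance to the nearest start was 20.8 kb for common sites, 0.828 kb for Bcl11b alone and 34.8 kb for GATA3 alone. Over 100 kb from any start lay 26.2% of the GATA3-alone peaks, 14.7% of the common peaks and 4.98% of the Bcl11b-alone peaks. The lists were annotated with different sets of transcripts: 1475 Bcl11b peaks (8.25%) and no GATA3 peak lacked a gene name, although common pairs had the same annotation class in 96.7% and the same gene in 96.9%. With 1 set of starts for both lists, the share at promoters became 48.9% for Bcl11b alone, 11.2% for common and 3.25% for GATA3 alone, in the same order.

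**Figure D1:**
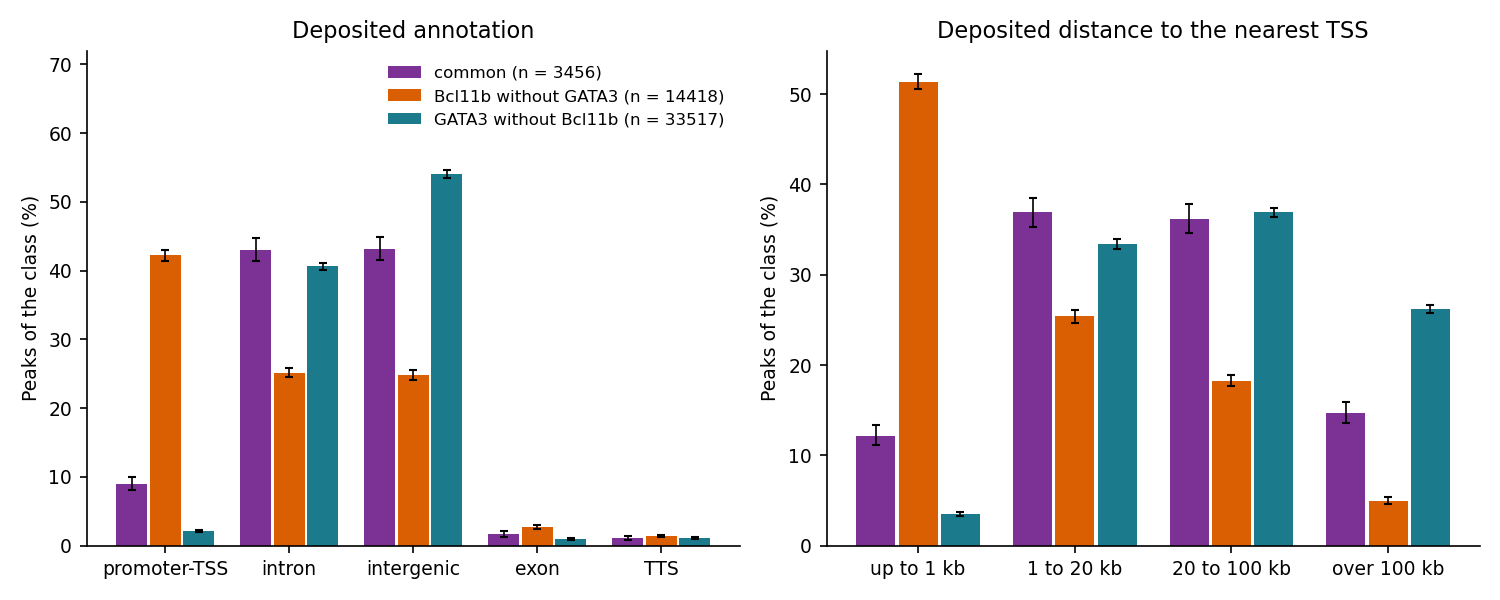
Share of peaks of each class (%, bars, with Wilson 95% intervals) by the deposited annotation (left) and by the deposited distance to the nearest TSS (transcription start site; right), for 3456 common, 14418 Bcl11b-alone and 33517 GATA3-alone peaks. Bcl11b-alone peaks stand out at promoters (42.3%) and within 1 kb of a start (51.4%), while common and GATA3-alone peaks are mostly intronic or intergenic.

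Repeats separated the classes further. A repeat was the deposited detailed annotation of 17.3% of common, 7.41% of Bcl11b-alone and 45.5% of GATA3-alone peaks. Among the GATA3-alone peaks, 4456 (13.3%) were in simple repeats, and in 4261 of these (12.7% of the class) the repeated unit spells GATA on one strand, chiefly (TCTA)n with 2173 peaks and (TAGA)n with 2084. Such units were almost missing where Bcl11b also bound: 9 common peaks by the GATA3 list (0.260%; 3 by the Bcl11b list) and 0 Bcl11b-alone peaks carried one. GATA3-alone peaks also lay in the LTR element MT2_Mm (924 peaks) and in the LINE element L1Md_F2 (586 peaks). CpG islands ran the opposite way, with 5.01% of Bcl11b-alone and 0.101% of GATA3-alone peaks. Of the common peaks 1.10% were so annotated in the Bcl11b list and 0.521% in the GATA3 list. Reads of 50 nt may not place uniquely within repeats, and how multiply mapped reads were treated is not stated in the sources used here.

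The strength of GATA3 binding, as the authors' peak score within the GATA3 list, differed between sites with and without Bcl11b. The median GATA3 score was 61.4 at common sites and 23.6 at GATA3-alone sites, and outside promoters it was 64.2 against 23.4. The Bcl11b score differed much less, with medians of 29.3 at common and 27.2 at Bcl11b-alone sites, or 29.1 and 25.6 outside promoters. Ranked by score outside promoters, the share of GATA3 peaks that were common was 41.3% in the top 10%, 14.3% in the next 10% and 2.14% in the bottom 10%. For Bcl11b peaks the same share went from 37.4% in the top 10% to 21.4% in the bottom 10%. The common share thus fell with the score in both lists, and more steeply in the GATA3 list, where most sites in the top 10% still lacked a Bcl11b peak. Whether a weaker peak of the other factor just missed the lists was not tested.

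**Figure D2:**
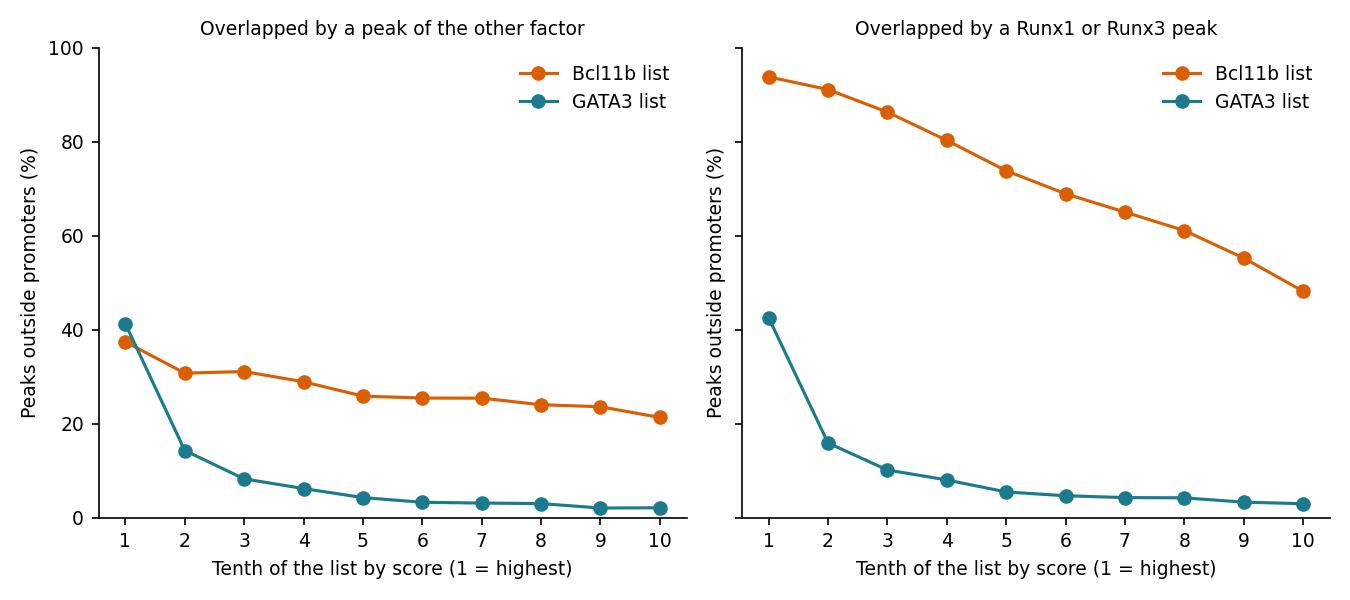
Share of peaks outside promoters (%, y axis) that were common, and that overlapped a Runx peak, in each 10% of the Bcl11b list and of the GATA3 list, ordered by the authors' peak score (x axis, highest scores first). The common share of GATA3 peaks falls from 41.3% to 2.14%, and that of Bcl11b peaks from 37.4% to 21.4%.

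The highest-scored members of each class were also read site by site, and they did not all follow the medians. Among common promoter peaks the top 4 by Bcl11b score were at Rdm1 (227.3, GATA3 score 159.6; chr11:101488710-101488946), Pgls (198.1 and 28.9), Tmem181a (193.4 and 256.8) and Art2b (193.3 and 234.2), and all 4 overlapped a Runx peak and had Bcl11b and GATA3 peaks in ILC2/b6 as well. Among common sites elsewhere was an intergenic peak 159 kb upstream of Mir181a-1, the host position of a microRNA known to tune T-cell receptor sensitivity (chr1:139703459-139703695, scores 268.9 and 217.3). It overlapped a Runx peak, and no peak of either factor was called there in ILC2/b6. The top Bcl11b-alone promoter peaks were at 6820431F20Rik (367.6), Zfp568 (333.0), 2610005L07Rik (324.5) and Wtap (274.6), and each had a Bcl11b peak in ILC2/b6. The top GATA3-alone promoter peaks were at Zfp207 (545.9), Ttc32 (456.3), Rala (341.8) and Diaph3 (324.4), each with a GATA3 peak in ILC2/b6. Those at Ttc32 and Diaph3 also overlapped a Runx peak and a Bcl11b peak of ILC2/b6. The very highest scores lay outside promoters and far above the rest: 3040.2 for a Bcl11b-alone peak nearest to Ly6c2, 2182.9 in an intron of Hgsnat, and 7200.2 for a GATA3-alone peak nearest to N6amt1. Both lists also had a high-scored peak in the ribosomal RNA gene Rn45s (591.7 and 715.4), at positions that did not overlap.

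Runx peaks were frequent at Bcl11b sites with or without GATA3 and rare at GATA3 sites without Bcl11b. A Runx1 or Runx3 peak of the same line overlapped 80.6% of common sites (interval 79.3% to 81.9%), 75.3% of Bcl11b-alone sites (74.6% to 76.0%) and 3.68% of GATA3-alone sites (3.48% to 3.88%). Outside promoters the shares were 80.1%, 69.5% and 3.44%, in the same order. Seen from the GATA3 list, 2076 of 2483 GATA3 peaks outside promoters (83.6%, interval 82.1% to 85.0%) with both a Runx1 and a Runx3 peak also had a Bcl11b peak. Of the 32309 GATA3 peaks there without any Runx peak, 633 (1.96%) had one. With Runx3 alone the share was 37.6% (409 of 1087), and with Runx1 alone it was 55.3% (52 of 94). The median GATA3 score was 65.4 with both Runx factors and 23.4 with neither, so Runx overlap and the GATA3 score moved together. Their separate parts were not tested. From the Bcl11b side the dependence on Runx was weaker, with a GATA3 peak at 32.9% of the Bcl11b peaks outside promoters that had both Runx factors and at 19.7% of those with neither.

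The other line gave a similar split. A Bcl11b peak in ILC2/b6 overlapped 37.3% of common, 44.5% of Bcl11b-alone and 3.85% of GATA3-alone sites, and a GATA3 peak there overlapped 55.1%, 2.93% and 46.4%. Outside promoters the Bcl11b shares were 34.2%, 30.6% and 3.68%, and the GATA3 shares were 52.5%, 3.40% and 45.8%. At promoters a Bcl11b peak in ILC2/b6 overlapped 11.5% of GATA3-alone sites, and a GATA3 peak there overlapped 2.28% of Bcl11b-alone sites. Sites of 1 factor in the pro-T-like line therefore rarely carried the other factor in the ILC2 line, while 35.1% of common sites carried both factors there.

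**Figure D3:**
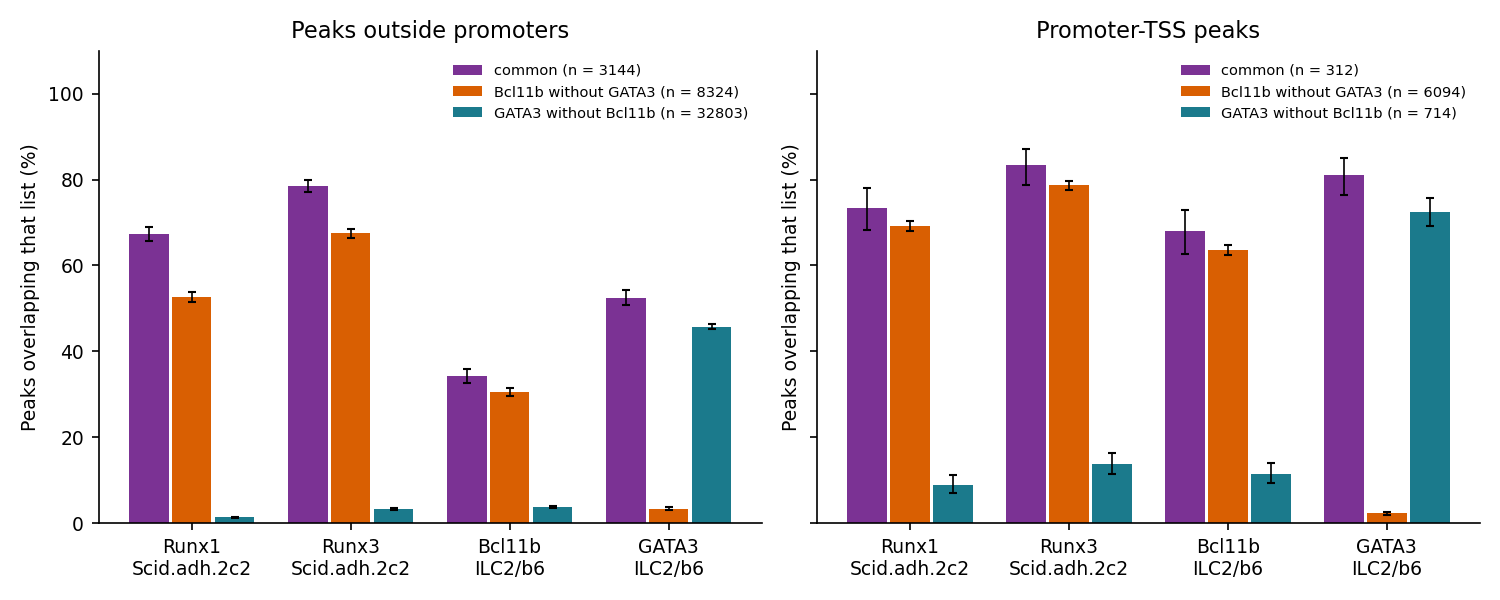
Share of sites of each class (%, bars, with Wilson 95% intervals) that overlap a peak of another list by at least 1 bp: Runx1 and Runx3 in Scid.adh.2c2, Bcl11b and GATA3 in ILC2/b6. Runx peaks cover most common and Bcl11b-alone sites and few GATA3-alone sites.

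The nearest genes of the 3 kinds of site differed in RNA level. A gene was put in the common class if at least 1 common site was nearest to it, in the Bcl11b-only or GATA3-only class if all its nearest peaks were of that kind, and in a mixed class if both factors had peaks at separate sites. In the control libraries 60.4% of the 2476 genes with a common site had a mean of at least 1 RPKM, against 83.0% of the 3160 Bcl11b-only genes, 16.3% of the 6563 GATA3-only genes and 18.0% of the 8084 genes with neither. The median level was 3.80 and 4.08 RPKM in the control libraries for the common class and 10.9 and 11.2 RPKM for the Bcl11b-only class, and the GATA3-only median was 0. Bcl11b-only genes were thus mostly expressed, and GATA3-only genes were mostly silent. In RNA from bulk cultures, fewer cells of a type and less RNA per cell cannot be told apart.

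With the Bcl11b guide, genes with a common site changed by a large step more often than genes of the other classes, in both directions. Of 10221 genes tested with limma (Benjamini-Hochberg adjusted p under 0.05), 57.8% were called, 35.1% rose and 22.7% fell, and 6.75% rose and 1.68% fell by 2-fold or more. For 80% of all genes tested both libraries of one guide lay above both of the other, so a gap between groups alone sets no gene apart. In the common class 699 of 1567 rose (44.6%) and 393 fell (25.1%). In the Bcl11b-only class the shares were 35.5% and 22.7%, close to those of all genes, and in the GATA3-only class they were 29.2% and 23.5%. A silent gene enters this test only if the guide raises it, so large changes were counted among the 9772 genes with at least 1 RPKM in both control libraries, of which 4.41% rose and 1.76% fell by 2-fold or more. In the common class 128 of 1484 rose by 2-fold or more (8.63%) and 74 fell (4.99%). The Bcl11b-only class had 85 of 2618 (3.25%) and 16 (0.611%), the GATA3-only class 41 of 1043 (3.93%) and 14 (1.34%), the mixed class 4.08% and 1.62%, and genes with neither 3.24% and 1.13%. Without the first control library the Bcl11b-only falls numbered 10 and the GATA3-only falls 9. After median centring, which moves the median log2 fold change of all genes from 0.05 to -0.08, 24.1% of all genes rose and 38.5% fell. The common class then still had the largest share of 2-fold changes, at 7.28% up and 6.00% down, against 2.33% and 0.879% for Bcl11b only. These are counts of genes whose classes rest on the nearest start, and no test compared the classes.

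Promoter binding and distal binding gave different pictures. When only peaks outside promoters were used, 9.48% of genes with a common site rose and 5.42% fell by 2-fold or more, against 6.93% and 1.65% for Bcl11b only, 6.24% and 3.19% for genes with both at separate distal sites, 2.87% and 0.763% for GATA3 only and 2.38% and 0.668% for neither. The share of genes with large rises was thus higher in each class with a distal Bcl11b site than with distal GATA3 sites alone, although in number the GATA3-only class held 79 and the Bcl11b-only class 63. The share with large falls was highest for common sites, followed by genes with both factors apart. Among genes with Bcl11b alone at the promoter, the shares were 8.63% and 3.87% with a distal common site (672 genes), 7.39% and 0.528% with distal Bcl11b only (379 genes), 5.87% and 2.15% with both at separate distal sites (698 genes), 2.23% and 0.434% with distal GATA3 only (1612 genes) and 1.58% and 0.281% with no distal peak (1778 genes). Large rises were thus fewest among these genes where no distal Bcl11b site was nearest. Counted over all genes, large changes tended to be more frequent at genes with more peaks of each kind. These counts were not split by gene class, so those for peaks of 1 factor include genes that also had a common site. By the number of common sites, 1.18% of genes with 0 common sites, 3.75% with 1, 9.38% with 2 and 10.6% with 3 to 4 fell by 2-fold or more. For rises the shares were 3.66%, 8.20%, 11.2% and 6.38%. The 20 genes with 5 or more common sites held 3 large rises and no large fall. For genes with 1, 2, 3 to 4 and 5 or more Bcl11b-alone peaks, 0.767%, 2.86%, 6.02% and 6.06% fell and 3.24%, 5.93%, 10.4% and 8.59% rose by 2-fold or more. For GATA3-alone peaks the falls went from 1.09% of genes with 0 to 5.27% of those with 5 or more, and the rises from 3.70% to 6.52%. Genes with more peaks also differ in their surroundings and length, and the part of these in the counts was not tested.

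**Figure D4:**
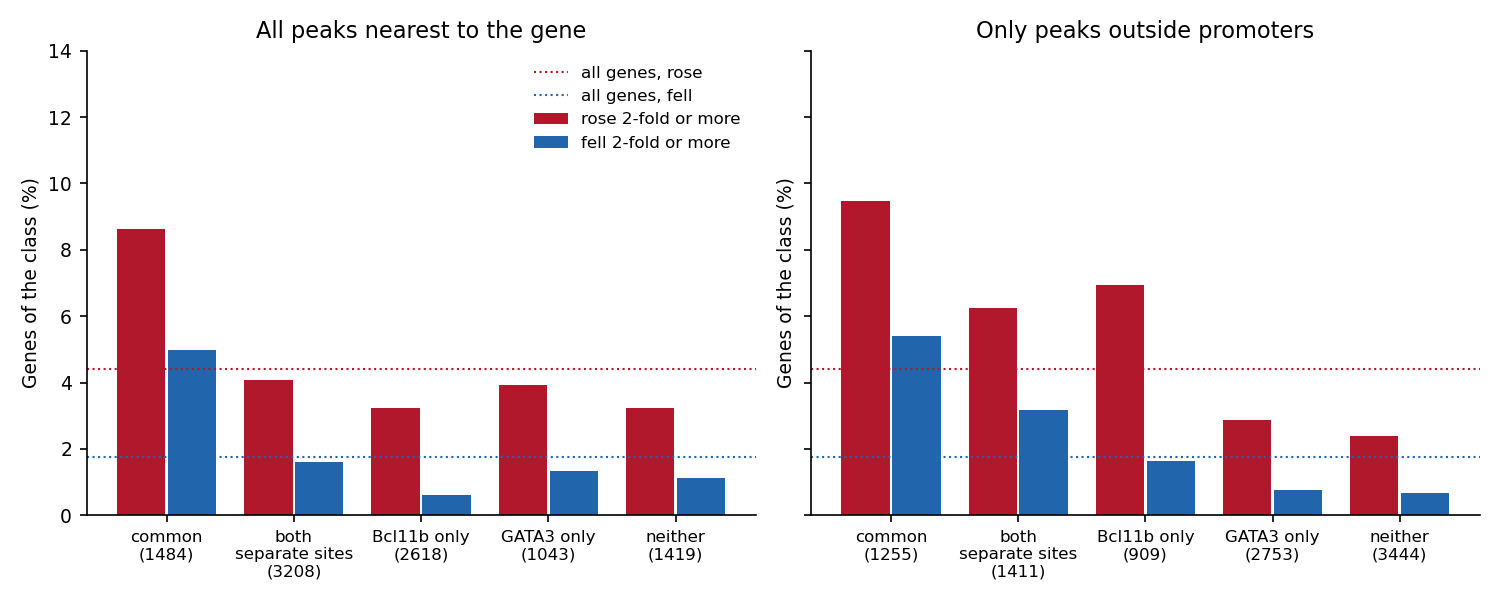
Share of genes (%, bars) of each class that rose or fell by 2-fold or more with the Bcl11b guide (limma, adjusted p under 0.05), among genes with at least 1 RPKM in both control libraries, by all nearest peaks (left) or only peaks outside promoters (right). Numbers in parentheses are genes and dotted lines are all genes (4.41% and 1.76%); the common class is highest in both panels.

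Genes of the T lineage with a common site moved both ways. Of the 13 tested members of the T-lineage list with a common site, 7 rose and 6 fell, against 44.6% and 25.1% of all tested genes with one. Cd28, a costimulatory receptor gene with 1 common site (28.3 and 84.4), rose from 11.4 and 10.9 RPKM to 28.7 and 27.4 RPKM. Cd2, an adhesion receptor gene, rose from 13.5 and 14.5 RPKM to 35.3 and 35.9 RPKM. The members that fell included Rag1, Lef1 and Tcf7. Rag1, a subunit of the enzyme that cuts antigen receptor genes, was at 64.1 and 75.7 RPKM in the control and 11.7 and 11.0 RPKM with the Bcl11b guide. The groups were far apart, and Rag1 fell by 2.57 ± 0.08 (SE) on the log2 scale (limma, adjusted p = 3.48e-07, 2 libraries per group). Its promoter site (chr2:101489623-101489859, 52 bp upstream) had a Bcl11b score of 54.5 and a GATA3 score of 52.3, and a second common site lay in an intron (26.4 and 86.7). The Rag2 gene, the neighbouring partner of Rag1, was the nearest gene of a stronger common site 73.4 kb upstream (chr2:101391396-101391632, scores 172.1 and 206.0). Rag2 was under 1 RPKM in every library (0.763 and 0.655, then 0.137 and 0.081) and was not tested.

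Lef1 and Tcf7 code for the related HMG-box factors of the T lineage. Lef1 had 4 common sites, among them one at the promoter (chr3:130815196-130815432, scores 51.5 and 202.3). Its RNA was 34.9 and 41.1 RPKM in the control and 8.27 and 8.20 RPKM with the guide, and it fell by 2.13 ± 0.08 (limma, adjusted p = 8.07e-07). Tcf7 had 3 common sites upstream, of which the strongest was 31.4 kb away (chr11:52127821-52128057, scores 123.4 and 332.8), and 5 Bcl11b-alone peaks, of which the strongest was 35.6 kb away (197.7). Its own promoter held a GATA3 peak without Bcl11b (32.4). Tcf7 RNA was 389.1 and 389.9 RPKM, then 216.0 and 218.1 RPKM, and it fell by 0.84 ± 0.04 (adjusted p = 2.74e-06), less than Lef1 and without overlap of the groups. Il2ra, the alpha chain of the interleukin-2 receptor, had 2 common sites (31.5 and 18.7 at 5.54 kb upstream, 22.4 and 30.4 in an intron), Bcl11b alone at the promoter (33.3) and GATA3 alone in an intron (140.0). It went from 150.3 and 168.4 RPKM to 44.3 and 42.8 RPKM, and fell by 1.86 ± 0.06 (adjusted p = 3.71e-07).

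Other genes with a common site rose, among them regulators and surface proteins known from innate lymphocytes. Runx3, the partner factor itself, had a strong common site in an intron (chr4:134692581-134692817, scores 156.4 and 266.9) and Bcl11b alone at the promoter (chr4:134676310-134676546, 172.6). Runx3 rose from 3.07 and 3.28 RPKM to 18.0 and 18.2 RPKM, by 2.34 ± 0.07 (limma, adjusted p = 2.58e-07), so the Runx peaks used above were measured at a Runx3 level below that of the guide cells. Fcer1g, an adaptor of activating receptors whose promoter is printed above, had its common site 65 bp upstream of the start (42.5 and 16.5) and Bcl11b alone in an intron (89.0). It rose from 3.09 and 2.43 RPKM to 47.3 and 51.4 RPKM, by 3.94 ± 0.10 (adjusted p = 1.71e-07). Arl4d, a small GTPase gene, had a common site 7.16 kb upstream (chr11:101519582-101519818, 244.3 and 179.9) that was among the highest of both lists, and rose from 1.49 and 1.57 RPKM to 43.3 and 45.2 RPKM (by 4.46 ± 0.06). Ccl5, a chemokine gene, had 1 common site 19.9 kb upstream (45.6 and 109.3) and rose from 1.61 and 1.81 RPKM to 35.8 and 37.3 RPKM. Itgb7, the integrin beta 7 gene, had an intronic common site (40.7 and 185.9) and rose from 21.6 and 17.0 RPKM to 89.8 and 90.0 RPKM. Zbtb16, which codes for PLZF, a factor of innate lymphocyte development, had 3 intronic common sites (the strongest 45.2 and 210.2) and no GATA3 peak apart from these, and stood at 0.112 and 0.169 RPKM, then 0.988 and 1.20 RPKM, too low for the test.

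By the rule on size the 6 largest rises among genes with a common site also included Slc2a6, Oasl2 and Cd226, and the 6 largest falls were Ndrg1, Fbp1, Stc1, Rag1, Arsi and D430041D05Rik. Slc2a6 and Oasl2 were under 1 RPKM in both control libraries and could enter the test only by rising. Fbp1, fructose bisphosphatase, had an intronic site with scores of 76.5 and 217.6, and its RNA went from 33.6 and 37.1 RPKM to 4.60 and 5.11 RPKM. Stc1, a secreted glycoprotein gene, had 3 common sites and went from 8.67 and 7.84 RPKM to 0.885 and 0.825 RPKM. Ndrg1, a stress-response gene, was unsteady in the control, at 116.9 and 45.9 RPKM against 8.29 and 7.59 RPKM with the guide, and it fell by 3.13 with an SE of 0.36.

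Genes with Bcl11b peaks only included 4 of the 32 T-lineage genes and 4 of the 20 interferon response genes of the lists. The class held 12.9% of all genes and 26.1% of all genes tested, so these counts do not set it apart. Ptcra, which codes for the alpha chain of the pre-TCR, had a single peak 4.31 kb upstream (57.5) and went from 31.6 and 31.1 RPKM to 7.96 and 7.88 RPKM, and it fell by 1.92 ± 0.05 (limma, adjusted p = 1.71e-07). Hes5, a Notch target, had 3 Bcl11b peaks, the strongest 2.54 kb upstream (88.4), and went from 14.2 and 15.7 RPKM to 3.75 and 3.67 RPKM. Il17rb, a cytokine receptor gene, had Bcl11b alone at the promoter (22.8) and went from 28.2 and 30.7 RPKM to 10.6 and 10.5 RPKM. Cd3g, whose promoter is printed above, moved little, from 136.4 and 129.9 RPKM to 157.9 and 161.2 RPKM (a rise of 0.26, adjusted p = 0.00146), and this call was lost after median centring (adjusted p = 0.104). Among the 6 largest rises of the class, Igtp, Isg20, Irf7 and Irgm2 belong to the interferon response. Irgm2 had 4 Bcl11b peaks, one of them at the promoter printed above (33.3), and rose from 17.6 and 16.7 RPKM to 102.6 and 102.3 RPKM, by 2.54 ± 0.04. The other 2 were Stk32c, a kinase gene, with means of 0.608 ± 0.013 and then 24.7 ± 0.42 RPKM (SD, n = 2), and Cd52, a lymphocyte surface antigen gene, at 3.94 and 2.83 RPKM, then 80.2 and 85.4 RPKM. Stk32c was under 1 RPKM in both control libraries and could enter the test only by rising.

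Some genes with GATA3 peaks only rose far although no Bcl11b peak was nearest to them. This class rests on the nearest start and does not mean that the region lacked Bcl11b. The highest-scored Bcl11b peak (3040.2; chr15:74917126-74917362) was assigned to Ly6c2 and lay in the same region as Ly6c1 (chr15:74875445-74879267). Ly6c1 had 8 GATA3 peaks and rose from 0.542 and 0.410 RPKM to 44.9 and 42.1 RPKM, by 5.50 ± 0.09 (limma, adjusted p = 3.79e-08). Being under 1 RPKM in both control libraries, Ly6c1 entered the test only through the guide libraries, so only a rise could be called. Ly6a rose from 5.13 and 3.37 RPKM to 171.9 RPKM in both guide libraries, and Gimap4 from 2.37 and 1.58 RPKM to 60.5 and 61.1 RPKM. The Ly6, Gimap and Ifit genes belong to families of related genes. Where members are near-identical, the division of reads between them is uncertain, and this was not checked for the genes named. Arg1, an arginase of ILC2 and macrophages, had 3 GATA3 peaks and rose from 0.374 and 0.432 RPKM to 14.5 and 13.2 RPKM. Like Ly6c1, Arg1 could enter the test only by rising. Falls were fewer and smaller: Hivep3 went from 8.21 and 10.8 RPKM to 2.00 and 2.12 RPKM, and Stap1, a signalling adaptor gene with GATA3 alone at its promoter (169.5), went from 34.0 and 34.7 RPKM to 13.7 and 13.0 RPKM.

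**Figure D5:**
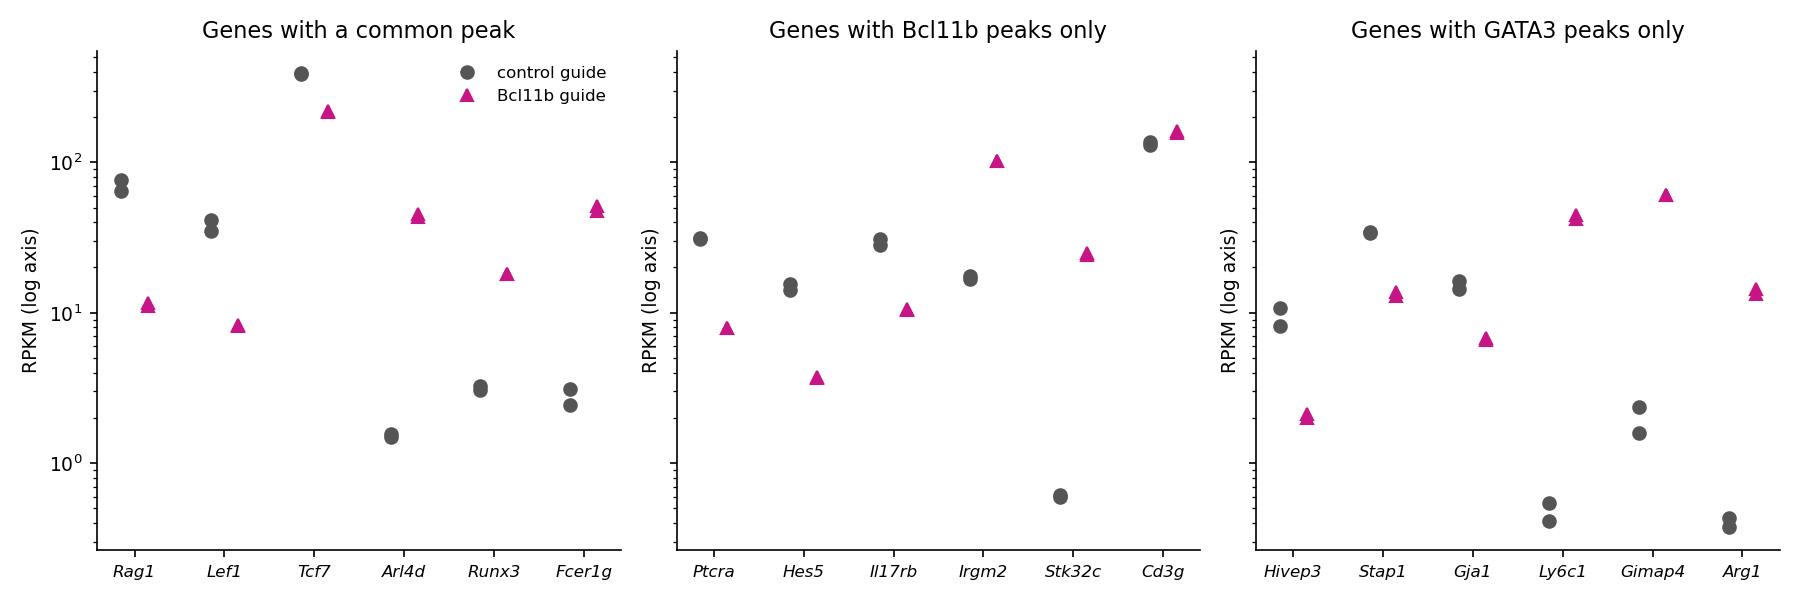
RPKM (log axis) of 18 named genes in the 2 control libraries (circles) and the 2 Bcl11b guide libraries (triangles), 6 genes each with a common site, with Bcl11b peaks only and with GATA3 peaks only. The circles and triangles are apart for every gene shown, with a small gap for Cd3g and wide ones for Rag1, Arl4d and Ly6c1. Many of these genes were chosen by a rule that requires such a gap, and 80% of all genes tested have one.

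Some loci had both factors at separate places, and some changed genes had no site of either. Il2rb, the receptor chain shared by interleukin-2 and interleukin-15, had GATA3 without Bcl11b at its promoter (108.0), at a site that overlapped a Runx peak, and Bcl11b alone 17.1 kb upstream (23.5). It rose from 1.83 and 1.54 RPKM to 125.5 and 126.1 RPKM, by 5.86 ± 0.07 (limma, adjusted p = 1.76e-08). Id2, an inhibitor of E proteins, had 3 Bcl11b peaks and 1 GATA3 peak apart and rose from 47.7 and 43.2 RPKM to 214.4 and 218.2 RPKM. Cd3e had GATA3 alone at the promoter (129.7) and was not called, at 172.9 and 173.7 RPKM, then 172.5 and 174.4 RPKM. Lck, the kinase of the T-cell receptor, had 3 Bcl11b and 2 GATA3 peaks apart and went from 133.6 and 136.3 RPKM to 77.7 and 79.5 RPKM. Notch1, which had no nearest peak of either factor, went from 68.5 and 81.9 RPKM to 23.9 and 23.5 RPKM, and Ncr1, an NK-cell receptor gene that also had none, rose from 0.142 and 0.258 RPKM to 37.6 and 36.3 RPKM. Ncr1, under 1 RPKM in both control libraries, could enter the test only by rising.

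The genes of the factors themselves had sites of all kinds. Bcl11b had 7 Bcl11b-alone peaks, 5 GATA3-alone peaks and 1 common site, the last in its 3′ UTR (18.4 and 47.7). Gata3 had 9 Bcl11b-alone peaks, 22 GATA3-alone peaks and 2 common sites, the stronger by GATA3 score lying 313.9 kb away (38.5 and 374.5). Gata3 RNA was 54.0 and 57.0 RPKM, then 63.1 and 66.2 RPKM (a rise of 0.22, limma, adjusted p = 0.00506), a call lost after median centring (adjusted p = 0.142). Runx1 had 6 common sites and was not called, at 19.4 and 21.3 RPKM, then 19.8 and 19.5 RPKM. Ikzf1, which codes for Ikaros, had 6 common sites in all (the strongest 43.1 and 274.9) and rose from 57.9 and 57.6 RPKM to 90.2 and 87.7 RPKM, by 0.62. Of the 6 genes with the most common sites, only Cxcr4, a chemokine receptor gene, was above 1 RPKM in every library. Cxcr4 had 7 and fell from 98.6 and 103.6 RPKM to 77.5 and 73.7 RPKM, by 0.42. The most GATA3-alone peaks were counted at Efna5 (59), 1700061F12Rik (54) and Gm20740 (51), none of which reached 1 RPKM, and the most Bcl11b-alone peaks at Dynlt1f (17), 4930465M20Rik (16) and Gse1 (16).

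Gene lists drawn up for the tissue were counted for common sites, which 10.1% of all genes and 15.3% of all genes tested had. With the Bcl11b guide, 35.1% of all genes tested rose and 22.7% fell. Of 32 T-lineage genes, 15 had a common site, and of the 24 tested 12 rose and 10 fell (median log2 fold change 0.08, against 0.05 over all genes tested). Of 12 Notch response genes 3 had a common site, and all 10 tested fell, with a median of -1.75. Notch3 (fell by 2.09), Dtx1 (fell by 1.77) and Hes1 (fell by 0.87) had both factors at separate sites, and Ptcra and Hes5 had Bcl11b only. Of 25 NK and innate effector genes 8 had a common site, and of the 16 tested 13 rose and 1 fell (median 3.38). For 20 ILC2 genes the counts were 9 with a common site, and 8 rises and 3 falls among 11 tested, including Il4 (0.316 and 0.149 RPKM, then 3.64 and 4.16 RPKM) with common sites at its promoter (15.7 and 81.3) and 11.5 kb away (56.5 and 61.7). Trafficking genes had common sites most often, in 11 of 16, with 8 rises and 2 falls among 12 tested. All 20 interferon response genes rose (median 2.68), and 3 of them had a common site, a share close to that of all genes tested. Of 20 partner and cofactor genes 12 had a common site, and 7 rose and 4 fell among 18 tested (median 0.07), about as often as all genes tested. Of the 19 cytokine signal regulators 7 had a common site, with 10 rises and 3 falls among 13 tested, one of the falls being Socs3 (12.4 and 13.7 RPKM, then 3.43 and 3.94 RPKM) with a common site of scores 29.5 and 393.8. Of the 17 progenitor genes 1 had a common site and 2 were tested, with 1 rise (Spi1) and 1 fall (Flt3). In the reference lists, also near that share, a common site was found for 3 of 20 ribosomal protein genes, with 0 rises and 15 falls (median -0.23), and 3 of 20 cell cycle genes, with 5 rises and 12 falls among 19 tested (median -0.17). Genes silent in the control enter the test only by rising, so the counts of lists that hold such genes lean to rises. Genes with a control mean of at least 1 RPKM numbered 10 beside 16 tested (NK), 6 beside 11 (ILC2) and 1 beside 2 (progenitor). For the interferon list they numbered 17 beside 20 tested, for trafficking 10 beside 12 and for cytokine signal regulators 12 beside 13.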

How the data were processed

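Per the labels, Bcl11b and GATA3 ChIP-seq and RNA-seq were done in Scid.adh.2c2, with 2 libraries per factor or guide. Per the submitters' processing notes, the tools were STAR 2.4.0, RSEM 1.2.25, edgeR 3.6.8, Trimmomatic, Bowtie 1.1.1 and HOMER, on NCBIM37 (mm9), with no role named for any. The authors deposited RPKM values per gene and library, and 1 HOMER-annotated peak list per factor with a peak score for each interval and a focus ratio, a fraction from 0 to 1 that was not used as a result. Per the file headers, each list came from both replicates together. Unmapped columns numbered 0.

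Peaks were intersected on mm9 (at least 1 bp) with Python 3.11.15, pandas 2.3.3, numpy 2.4.6 and scipy 1.17.1, and plotted with matplotlib 3.10.9. Shares carry Wilson 95% intervals for counting error only. A gene's peaks are those whose deposited annotation names it as nearest; symbols were filled from RefSeq accessions where the Bcl11b list had none. The guide comparison used limma 3.58.1 in R 4.3.3 with its trend option, on log2(RPKM + 0.5) for genes that reached 1 RPKM in 2 or more libraries. P-values were adjusted by Benjamini-Hochberg over all genes tested, and genes were called at an adjusted p under 0.05; every adjusted p in the text is from such a fit. Fold changes on this scale understate those of low genes. The code was tested on simulated data.

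Depth was read from the steps of the RPKM values, all whole reads within 0.1 read among the values precise enough to test. At these depths 3 reads on a 2-kb transcript are worth 0.0343 to 0.0432 RPKM. The RNA kit is not one named as marking strand, so overlapping antisense genes cannot be told apart.

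Named peaks were the 4 promoter and 4 other peaks of each class with the highest score. Named genes were the 6 largest rises and falls of each class with at least 5 RPKM in the higher group and no overlap, the 6 genes with most peaks of each kind, a set of T-cell loci and up to 4 called genes per list; a selection of them is printed. Cpa3, the gene behind the mast cell marker sum, is named after its values were seen. The peak classes, gene lists and the alternatives were chosen with earlier results of these data known. The count of 2-fold changes among genes with at least 1 RPKM in both controls was set after seeing the data. Input libraries and the RNA of the other line were not analysed here.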

Additional observations from a re-analysis of the deposited data

How the results depend on the processing

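The order of the promoter shares (Bcl11b alone, common, GATA3 alone) held under all 6 alternatives tried for it. Requiring an overlap of at least 50% of the shorter peak, the common sites were 17.1% of Bcl11b and 8.28% of GATA3 peaks, the promoter share was 7.09% (common) and 2.35% (GATA3 alone), and the control median of common genes was 3.44 RPKM. With centres within 100 bp these were 15.0%, 7.27%, 6.18% and 2.46%, 3.12 RPKM, and 41.1% promoters for Bcl11b alone. With scores of at least 30 they were 16.9%, 9.76%, 7.68%, 3.30%, 4.31 RPKM and 46.8%, with 0.022 RPKM for GATA3-only genes. With equally many top-scored peaks, 16.0% of either list was common, and promoters were 7.79% (common), 41.2% (Bcl11b alone) and 2.74% (GATA3 alone), with 10.2 RPKM for Bcl11b-only genes. Within 1000 bp of a start lay 12.2%, 51.4% and 3.51%. With 1 set of starts, an alternative chosen after seeing the data, it was 11.2%, 48.9% and 3.25%, and 3.70 RPKM for common genes. Using peaks within 20 kb of a start, the control medians were 6.13 (common), 10.8 (Bcl11b only) and 0.004 RPKM (GATA3 only), and outside promoters 2.93, 6.19 and 0.011 RPKM.

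Counts of genes that rose or fell moved as follows. Over all genes 3934 fell after median centring and 3918 after quantile normalization, with 267 falls of 2-fold or more under the latter. Leaving out 1 library gave 2245 to 4334 rises, 1455 to 2800 falls, 446 to 693 rises and 139 to 176 falls of 2-fold or more. In the common class it gave 476 to 779 rises, 299 to 432 falls, and among genes with at least 1 RPKM in both controls 124 to 130 rises and 58 to 74 falls of 2-fold or more. For Bcl11b only these were 577 to 1103, 342 to 706, 78 to 87 and 10 to 15, and for GATA3 only 178 to 431, 160 to 326, 40 to 41 and 9 to 17. With scores of at least 30 the common class had 316 rises, 184 falls, and 62 rises and 44 falls of 2-fold or more, Bcl11b only had 28 such falls, and GATA3 only had 562 rises with 75 rises and 27 falls of 2-fold or more. With equally many peaks, Bcl11b only had 130 rises and 30 falls of 2-fold or more, and GATA3 only 202 rises and 165 falls. Within 20 kb the common class had 463 rises and Bcl11b only 29 falls of 2-fold or more. Outside promoters Bcl11b only had 404 rises and 202 falls, and GATA3 only 881 rises, 622 falls and 79 rises of 2-fold or more. Median centring gave Bcl11b only 594 rises and 1049 falls, and GATA3 only 461 falls. Quantile normalization gave 602, 1052 and 466, with 37 and 30 falls of 2-fold or more. Without a filter GATA3 only had 567 rises. With a pseudocount of 0.1 it had 22 falls of 2-fold or more, and with 1 it had 9, as did Bcl11b only. The cause of these shifts was not tested, beyond fewer or more peaks and genes entering.

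With the replicate number as a block, 3600 genes rose and 2321 fell, of which 3488 and 2214 were also called without it. Same-numbered libraries did not deviate together (correlation 0.037), so they share only a number. Of the 95 named genes tested, 85 kept their call under each of the 10 alternative fits that tested them. Fits without 1 library of the Bcl11b guide tested 80 of the 95, and fits without 1 control library tested 93. Genes that passed the filter only through the 2 guide libraries were thus not refitted without one of these. Only Dynlt1f reversed (0.01, adjusted p = 0.833, under quantile normalization in limma, against -0.18). Dynlt1f also lost its call under the block (adjusted p = 0.0605). With 2 libraries per group small changes are poorly resolved, and levels near 0.04 RPKM rest on a few reads.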
